A study of Homo sapiens with 9 samples.

Results

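Type I interferon-stimulated genes were followed as a group of 45 genes out of the 60656 genes of the deposited count table, across RIVA lymphoma cells that expressed no BCL10 insert, BCL10 S136X or BCL10 R58Q. The members were given as a list of gene symbols and were found as the rows of the table that carry those symbols. The rule itself reads no measured value, but the list was drawn up with earlier results of these data known. RIVA is an established ABC-DLBCL line, a lymphoma of large B cells with an activated B-cell expression profile, and each construct was delivered by a doxycycline-inducible lentiviral vector (plvx-Tetone) with puromycin selection. The groups were empty vector, BCL10 S136X (a truncation) and BCL10 R58Q (a missense change in the CARD domain), with 3 replicates each, and cells of every group, the empty vector included, received 200 ng/mL doxycycline for 24 h. The labels also list the dose as 200 ng/µL in another field, and they do not say whether a line was 1 clone or a pool. The study calls the replicates biologic, without saying for these libraries how the cultures were kept apart, and p-values measure the spread between these libraries.

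Type I interferons bind the receptor chains IFNAR1 and IFNAR2, which activate the kinases JAK1 and TYK2. These act on transcription factors such as STAT2, which works with IRF9 in the complex ISGF3 at interferon-stimulated response elements in the promoters of target genes. The products block virus entry, translation and replication, modify proteins with ISG15, and include sensors and transcription factors that raise the response further as well as USP18, which dampens it. BCL10 itself is an adaptor that acts with MALT1 in the complex that carries B-cell receptor signals to NF-kB.

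Total counts per library ranged from 28047713 to 33122267. BCL10 counts, endogenous transcript and construct together, checked the labels only between vector and insert. They were 885, 1268 and 936 in the vector libraries, 14293, 13210 and 9838 in S136X, and 10596, 10131 and 10117 in R58Q. The counts of the mutants overlapped, so that they do not check which mutant a library carried or its replicate number. The 6 B-cell markers read were expressed in every library, at a summed level between 3367 and 4271 CPM (the gene's count per fixed number of counts in the library, scaled by TMM factors), while the 14 markers of other blood cells summed to between 3.34 and 7.56 CPM. Of these 14, 3 were at 0 in every library and 9 did not exceed 3 counts in any, and CD8A, at up to 6.33 CPM, made up most of the sum. Mitochondrial transcripts took between 5.12% and 8.45% of counts and ribosomal protein transcripts between 4.33% and 4.94%. Column names of the deposited table date the R58Q libraries later than those of the other constructs, which share 1 date, so that the date and R58Q cannot be told apart in any comparison with R58Q. These are bulk libraries, in which a higher level in every cell and a larger share of cells at a high level cannot be told apart.

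Most promoter windows found for the members held the same short element, and 6 windows that hold it are shown. Their genes differ in response, from IFI44L, with one of the larger fold changes, to TRIM14, which followed the construct and not the replicate number. For a gene with more than 1 window, the one with the element nearest the start is shown. Members without the element in any window are not shown. Windows are RefSeq sequences of GRCh38.p14 from 250 bases before to 50 bases after a transcription start, and 35 of the 45 members had at least 1. The letters GAAA, any 2 bases and GAAA again, the core of an interferon-stimulated response element, were searched on both strands and are printed in capitals. A run that begins with TTTC is the same element on the other strand. Overlapping matches merge into 1 longer run. The ISG15 window lies at chr1:1013247-1013546 on the + strand, IFIT1 at chr10:89392373-89392672 (+), MX1 at chr21:41420308-41420607 (+), IFI44L at chr1:78620198-78620497 (+), IFIH1 at chr2:162318635-162318934 (-) and TRIM14 at chr9:98119173-98119472 (-).
ISG15: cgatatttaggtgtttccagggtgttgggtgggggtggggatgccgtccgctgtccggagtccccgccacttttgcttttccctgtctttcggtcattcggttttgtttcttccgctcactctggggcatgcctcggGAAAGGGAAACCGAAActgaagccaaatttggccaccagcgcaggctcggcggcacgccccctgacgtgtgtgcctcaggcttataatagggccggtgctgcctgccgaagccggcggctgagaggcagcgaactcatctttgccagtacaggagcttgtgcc
IFIT1: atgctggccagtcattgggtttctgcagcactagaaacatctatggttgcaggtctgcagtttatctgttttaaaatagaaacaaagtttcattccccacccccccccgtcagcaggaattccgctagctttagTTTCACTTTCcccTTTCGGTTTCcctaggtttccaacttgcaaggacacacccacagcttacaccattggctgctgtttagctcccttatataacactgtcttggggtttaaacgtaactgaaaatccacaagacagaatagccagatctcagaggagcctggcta
MX1: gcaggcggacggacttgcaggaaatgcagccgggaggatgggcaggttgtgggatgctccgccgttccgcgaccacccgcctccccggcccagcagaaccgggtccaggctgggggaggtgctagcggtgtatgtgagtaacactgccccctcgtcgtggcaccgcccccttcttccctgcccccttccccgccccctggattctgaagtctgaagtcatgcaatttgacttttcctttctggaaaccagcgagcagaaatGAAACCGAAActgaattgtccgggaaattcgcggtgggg
IFI44L: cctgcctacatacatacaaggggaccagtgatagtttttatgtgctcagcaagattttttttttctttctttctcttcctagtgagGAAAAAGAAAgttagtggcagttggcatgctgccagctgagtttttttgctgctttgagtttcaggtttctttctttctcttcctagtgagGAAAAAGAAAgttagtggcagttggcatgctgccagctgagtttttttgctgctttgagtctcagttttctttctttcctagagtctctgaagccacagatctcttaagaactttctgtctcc
IFIH1: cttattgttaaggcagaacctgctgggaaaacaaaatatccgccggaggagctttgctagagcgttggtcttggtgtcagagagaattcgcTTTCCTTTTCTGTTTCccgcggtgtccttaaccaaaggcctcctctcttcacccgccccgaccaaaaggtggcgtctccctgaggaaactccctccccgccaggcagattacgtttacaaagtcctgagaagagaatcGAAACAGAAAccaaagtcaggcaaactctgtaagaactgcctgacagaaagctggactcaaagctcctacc
TRIM14: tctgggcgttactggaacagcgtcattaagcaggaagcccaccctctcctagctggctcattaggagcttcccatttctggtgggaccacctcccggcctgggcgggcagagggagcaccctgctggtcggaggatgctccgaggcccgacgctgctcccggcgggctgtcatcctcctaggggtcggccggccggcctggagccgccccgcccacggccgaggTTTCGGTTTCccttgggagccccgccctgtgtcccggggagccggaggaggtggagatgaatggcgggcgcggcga

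Of the 49 windows of members, 30 (61.2%) held the element, beside 3.57% of all 35114 windows of the same length. By gene it was found for 25 of the 35 members with a window, beside 4.38% of 27303 genes. In the windows shown it began 113 and 107 bases before the start of ISG15, 116 and 103 bases before that of IFIT1, and 26 bases before that of TRIM14. MX1 held it 11 bases after the start. IFI44L held it at 164 and 73 bases before the start, and IFIH1 held 3 matches, at 159, 153 and 21 bases before it. The letters TTCNNNGAA, a palindrome which reads the same on both strands, lay in 12 of the 49 windows and in 7.66% of all windows, and an NF-kB consensus lay in 7 of the 49 and in 11.3% of all. A match is a run of letters and does not show that a factor was bound.

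The members lay on 18 chromosomes, and 22 of them stood in 9 clusters with gaps under 500 kb. The positions are those of the table on GRCh38 (hg38). IFIT2, IFIT3, IFIT1 and IFIT5 lie together on chromosome 10 (89283694 to 89420997), OAS1, OAS3 and OAS2 on chromosome 12 (112906783 to 113011723), MX2 and MX1 on chromosome 21 (41361999 to 41459214), and IFI44L and IFI44 on chromosome 1 (78619922 to 78664078).

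In cells with the empty vector most members were already transcribed. Per kilobase of exon (GENCODE 29), the mean level was highest for BST2, at 33.9 CPM per kb, followed by UBE2L6 at 26.9, ISG15 at 19.1 and MX1 at 18.4. At the other end HERC5, CMPK2, IFIT1 and XAF1 stood between 0.213 and 0.259 CPM per kb, IFI27 at 0.187, RSAD2 at 0.0084 and ZBP1, a sensor of Z-form nucleic acids, at 0.0091. In R58Q cells MX1 was highest at 92.4 CPM per kb, with BST2 at 83.0 and ISG15 at 68.8. All 45 members together took 0.0977% to 0.155% of counts in the vector libraries, 0.132% to 0.400% in S136X and 0.191% to 0.492% in R58Q.

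Both mutants had higher levels of the interferon-stimulated genes than the vector, and the call depended on how the replicates were treated. A gene was called when edgeR's quasi-likelihood test gave a Benjamini-Hochberg adjusted p under 0.05 over all genes tested and the change was at least 1.5-fold. In S136X cells 42 of the 43 members tested had a positive log2 fold change, with a median of 1.11 beside -0.02 over all genes, and 8 of the 43 were called higher and 0 lower, beside 2.05% of the 15530 genes tested that were called higher. Those 8 were OASL, MX1, BST2, IFIH1, IRF7, IFI6, IFI44L and EPSTI1. With the replicate number as a block, 30 of the 43 were called higher, beside 2.9% of all genes. The labels do not say that same-numbered libraries belong together, and this pairing was read from the same libraries. Without any one of vector replicate 1, vector replicate 2, S136X replicate 2 or S136X replicate 3 the count fell to 1, 0, 4 and 2. In the same fits 279, 187, 306 and 220 of all genes were called higher, against 319 with every library. Without S136X replicate 1 the count of members rose to 36, and 366 of all genes were called higher.

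In R58Q cells all 43 members tested had a positive log2 fold change, with a median of 1.53 beside -0.03 over all genes. Of the 43, 36 were called higher and 0 lower, beside 4.09% of the 15435 genes tested. The block gave 39 of 43, beside 4.79% of all genes. Without vector replicate 2 the count fell to 14 of 44, and the genes called higher among all genes fell from 632 to 474. RSAD2 and ZBP1 did not pass the filter on low counts in either comparison with vector. The comparisons share the 3 vector libraries, so that a high or low vector library moves both.

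**Figure D1:**
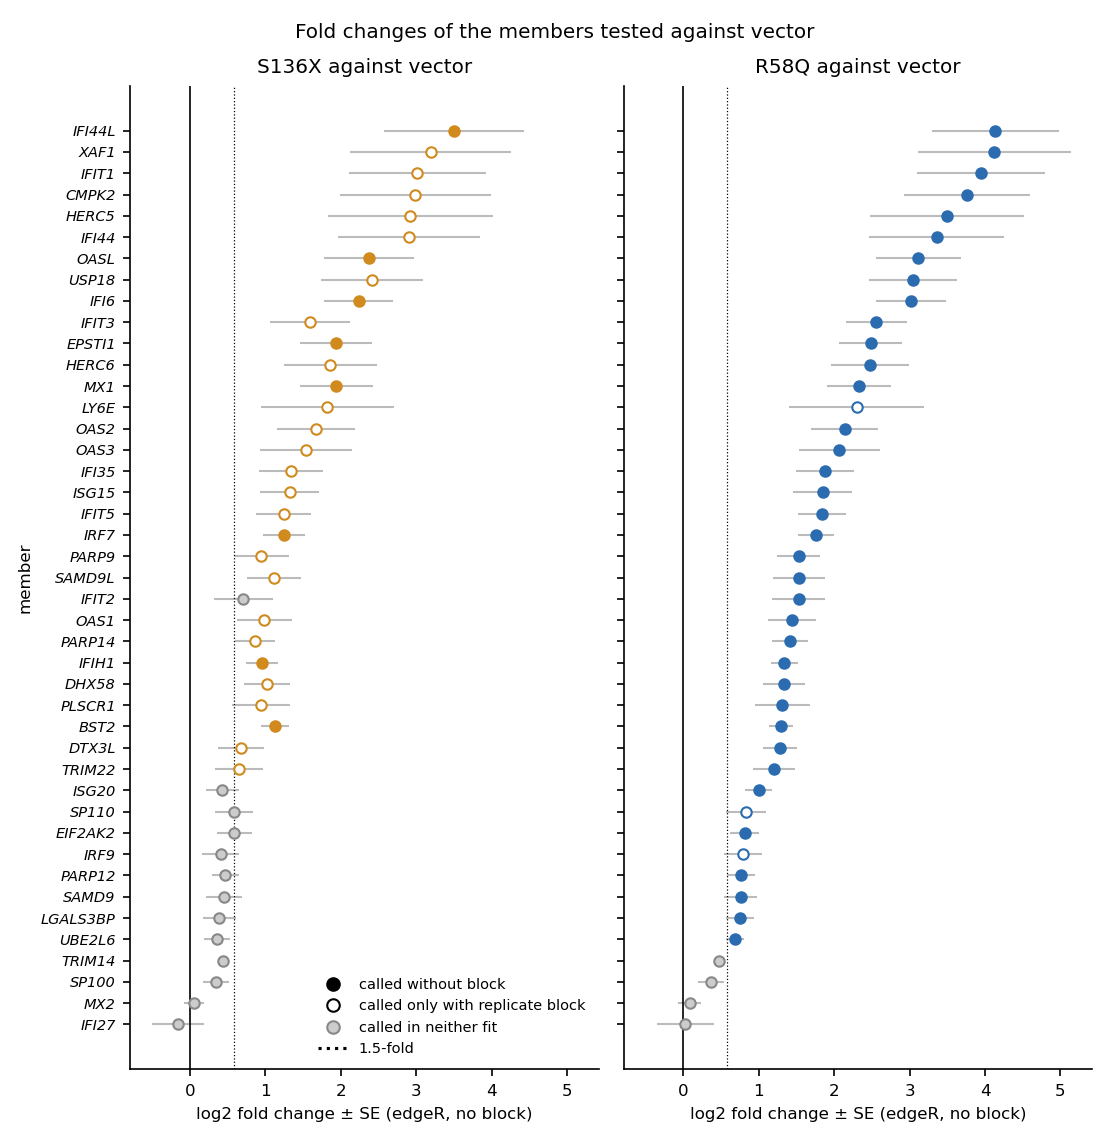
Log2 fold change ± approximate standard error (edgeR without a block, x axis) of the 43 members tested (y axis, ordered by R58Q) in S136X and R58Q against vector. Filled points were called, open points were called only with the replicate number as a block, grey points in neither fit, and the dotted line marks 1.5-fold. For S136X 8 points are filled and 22 more are open, and for R58Q 36 are filled and 3 more are open.

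**Figure D2:**
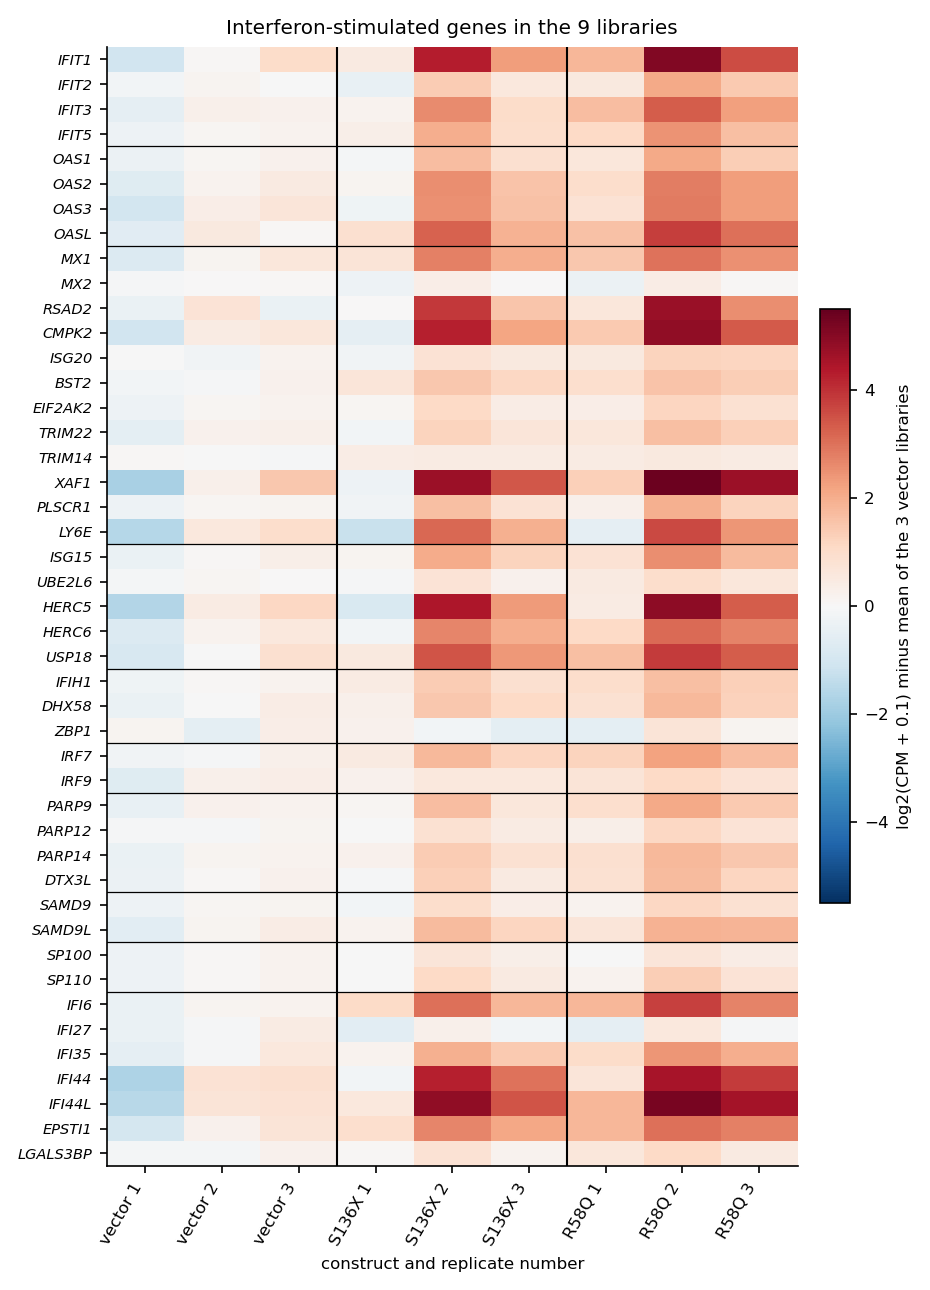
Level of each of the 45 members (rows, in blocks of related function) in the 9 libraries (columns) as log2(CPM + 0.1) minus the mean of the 3 vector libraries. Replicate 2 of both mutants is the darkest column of its group, replicate 1 the palest, and MX2, TRIM14, ZBP1 and IFI27 stay pale throughout.

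The IFIT proteins bind foreign RNA ends and block its translation. IFIT1 stood at 0.356, 0.886 and 1.80 CPM in vector replicates 1 to 3, at 1.23, 18.8 and 4.53 in S136X and at 3.24, 32.50 and 11.3 in R58Q. S136X replicate 1 lay within the vector range and the other mutant libraries above it. The change was 3.02 ± 0.91, adjusted p = 0.0695 in log2 units for S136X, which was called only with the block (2.70 ± 0.49, adjusted p = 0.00332), and 3.94 ± 0.85, adjusted p = 0.0148 for R58Q, which was called. For IFIT3 the levels were 4.13, 7.09 and 6.80 CPM in vector, 6.59, 35.7 and 11.9 in S136X and 19.04, 58.8 and 28.6 in R58Q. Every R58Q library exceeded every vector library, and S136X replicate 1 did not. IFIT5 measured 7.98, 10.54 and 11.2 CPM in vector, 12.2, 39.00 and 19.3 in S136X and 20.9, 54.9 and 30.8 in R58Q, with no overlap between vector and either mutant. The least responsive of the family was IFIT2, at 2.29, 2.87 and 2.502 CPM in vector, 1.88, 6.79 and 3.82 in S136X and 3.77, 11.2 and 7.16 in R58Q, with log2 fold changes of 0.71 ± 0.39, adjusted p = 0.281 and 1.53 ± 0.35, adjusted p = 0.0186. Of the 4 genes, 0 were called for S136X and 4 for R58Q, and the block gave 3 (all but IFIT2) and 4. Over all genes tested 2.05% were called higher for S136X and 4.09% for R58Q, and 2.9% and 4.79% with the block. The same shares stand beside the counts against vector by family and gene list that follow.

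Oligoadenylate synthetases make the second messenger that activates RNase L, which cuts RNA. OAS1 levels were 23.6, 32.55 and 34.7 CPM in vector, 27.9, 97.1 and 55.01 in S136X and 45.8, 126 and 75.52 in R58Q. Those of OAS2 were 25.8, 46.8 and 57.2 CPM in vector, 45.6, 245 and 122 in S136X and 80.51, 292 and 200.1 in R58Q. Those of OAS3 were 10.7, 27.3 and 34.1 CPM in vector, 18.4, 124 and 65.9 in S136X and 37.54, 158 and 107 in R58Q. For these 3 genes S136X replicate 1 lay within the vector range, while R58Q replicate 1 lay above it. OASL, which lacks synthetase activity and aids RIG-I, stood at 0.534, 1.34 and 0.942 CPM in vector, 1.71, 9.27 and 3.61 in S136X and 2.86, 13.7 and 8.01 in R58Q, without overlap. OASL was called in both mutants, at 2.37 ± 0.59, adjusted p = 0.0376 for S136X and 3.12 ± 0.56, adjusted p = 0.00766 for R58Q on the log2 scale. The other 3 were called in R58Q cells (OAS2 2.14 ± 0.45, adjusted p = 0.0134) and, for S136X, with the block alone (OAS2 1.46 ± 0.23, adjusted p = 0.00162).

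The paired dynamin-like GTPases of chromosome 21 differed. MX1, which traps viral nucleocapsids, measured 87.2, 161 and 226 CPM in vector, 241, 992 and 590.1 in S136X and 405, 1149 and 835 in R58Q. All mutant libraries exceeded all vector libraries, with log2 fold changes of 1.94 ± 0.48, adjusted p = 0.0374 for S136X and 2.33 ± 0.42, adjusted p = 0.00766 for R58Q. MX2, known for restricting HIV at the nucleus, stood at 109.8, 117 and 121 CPM in vector, 95.2, 148 and 117 in S136X and 93.2, 153 and 122 in R58Q. Its groups overlapped, and its log2 fold changes of 0.053 ± 0.14, adjusted p = 0.837 and 0.086 ± 0.15, adjusted p = 0.723 were called neither without nor with the block.

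Among the other antiviral effectors BST2, a membrane protein that tethers budding virus, had the smallest adjusted p among the called members in both comparisons. It stood at 34.1, 35.54 and 44.1 CPM in vector, 60.2, 105 and 82.8 in S136X and 72.45, 110.3 and 95.8 in R58Q. On the log2 scale the changes were 1.12 ± 0.18, adjusted p = 0.008 for S136X and 1.29 ± 0.16, adjusted p = 0.00147 for R58Q. XAF1, a proapoptotic antagonist of XIAP, had a larger fold change and a wider spread, at 0.208, 1.16 and 2.85 CPM in vector, 0.752, 26.9 and 11.02 in S136X and 2.46, 44.03 and 27.6 in R58Q. R58Q replicate 1 lay below vector replicate 3, and the log2 fold changes were 3.19 ± 1.06, adjusted p = 0.0936, called only with the block (3.03 ± 0.42, adjusted p = 0.000816), and 4.12 ± 1.01, adjusted p = 0.0241, called. An antisense gene, PRAL, covers 38.3% of the exon bases of XAF1, and with the strand used in counting not given in the sources used here their reads cannot be told apart.

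RSAD2 (viperin), which makes a chain-terminating nucleotide, was near 0 in vector, at 0, 0.122 and 0 CPM. It reached 0.0342, 1.83 and 0.281 CPM in S136X and 0.101, 3.44 and 0.673 in R58Q, and replicate 2 held most of its reads in each mutant. Its neighbour CMPK2, a mitochondrial nucleotide kinase, was called for R58Q (3.76 ± 0.83, adjusted p = 0.0167) and for S136X only with the block (2.62 ± 0.45, adjusted p = 0.00263). TRIM14, an adaptor of antiviral signalling, was singled out after its values were seen. It stood at 33.1, 30.9 and 30.52 CPM in vector, 42.1, 43.1 and 43.1 in S136X and 42.6, 45.7 and 42.9 in R58Q. No vector library reached any mutant library, the replicates of a group lay close together, and the log2 fold changes of 0.44 ± 0.066, adjusted p = 0.00571 and 0.47 ± 0.066, adjusted p = 0.00269 were under 1.5-fold and so were not called.

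The remaining effectors were ISG20, EIF2AK2 (the kinase PKR), TRIM22, PLSCR1 and LY6E. In R58Q cells ISG20, EIF2AK2, TRIM22 and PLSCR1 were called, with log2 fold changes between 0.81 and 1.31. LY6E changed its call with the block in both comparisons, from 1.82 ± 0.88, adjusted p = 0.227 to 1.57 ± 0.31, adjusted p = 0.00494 for S136X and from 2.30 ± 0.89, adjusted p = 0.101 to 2.08 ± 0.29, adjusted p = 0.000802 for R58Q. For S136X the block also gave calls for TRIM22 (0.60 ± 0.10, adjusted p = 0.00263) and PLSCR1 (0.81 ± 0.21, adjusted p = 0.0216).

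ISG15 is a ubiquitin-like modifier, UBE2L6 its conjugating enzyme, HERC5 and HERC6 are HECT-type ligases, and USP18 removes ISG15 and restrains the receptor. ISG15 levels were 13.7, 18.46 and 21.8 CPM in vector, 19.8, 73.4 and 41.54 in S136X and 30.3, 104 and 59.8 in R58Q. USP18 levels were 1.75, 3.30 and 6.30 CPM in vector, 4.85, 37.8 and 17.6 in S136X and 10.6, 48.54 and 34.8 in R58Q. For both genes every R58Q library lay above the vector libraries and S136X replicate 1 within them. All 5 genes of this group were called for R58Q, at 0.69 (UBE2L6) to 3.5 (HERC5). For S136X 0 of the 5 were called, and 4 were with the block, all but UBE2L6, among them ISG15 (1.19 ± 0.21, adjusted p = 0.00297) and USP18 (2.24 ± 0.33, adjusted p = 0.00114). Of the 31-base words of USP18 transcripts 28.8% also occur in USP41, so that its counts could hold reads of that copy.

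IFIH1 (MDA5) and DHX58 (LGP2) are RNA sensors of the RIG-I family. IFIH1 stood at 22.7, 28.02 and 31.1 CPM in vector, 37.4, 71.3 and 49.8 in S136X and 53.2, 86.7 and 67.6 in R58Q, without overlap, at 0.95 ± 0.21, adjusted p = 0.0259 and 1.34 ± 0.18, adjusted p = 0.00227. DHX58 measured 2.998, 3.91 and 5.18 CPM in vector, 4.85, 11.3 and 8.53 in S136X and 7.14, 13.96 and 9.51 in R58Q. It was called for R58Q (1.34 ± 0.28, adjusted p = 0.0129) and for S136X only with the block (1.0 ± 0.17, adjusted p = 0.00272). ZBP1 did not exceed 4 counts in any library, and no fold is given for it. IRF7, the factor that amplifies interferon production, stood at 16.53, 17.97 and 22.6 CPM in vector, 26.96, 66.1 and 42.52 in S136X and 43.8, 88.52 and 61.6 in R58Q. It did not overlap between vector and either mutant and was called in both, at 1.25 ± 0.28, adjusted p = 0.0259 and 1.76 ± 0.24, adjusted p = 0.00239. IRF9, the DNA-binding part of ISGF3, moved less, at 5.85, 11.2 and 11.9 CPM in vector, 10.8, 13.8 and 13.9 in S136X and 14.9, 19.9 and 15.51 in R58Q. It was called for R58Q only with the block (0.79 ± 0.25, adjusted p = 0.0536 without, 0.82 ± 0.15, adjusted p = 0.00354 with). AL136295.5, a gene on the same strand, shares 48.4% of the exon bases of IRF9, so that these counts are uncertain.

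PARP9 and DTX3L form a complex with ADP-ribosylation and ubiquitin ligase activity. PARP9 levels were 13.8, 22.1 and 21.01 CPM in vector, 20.3, 60.9 and 28.3 in S136X and 35.45, 79.00 and 50.7 in R58Q. DTX3L levels were 26.47, 34.7 and 39.00 CPM in vector, 31.3, 82.00 and 47.01 in S136X and 59.2, 111 and 74.4 in R58Q. R58Q was above vector in every library for both genes, and S136X replicate 1 was not. With PARP12 and PARP14, all 4 were called for R58Q, at 0.77 (PARP12) to 1.53 (PARP9), 0 for S136X, and 3 for S136X with the block (PARP14 0.81 ± 0.11, adjusted p = 0.000594).

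SAMD9L, a restrictor of translation and growth, stood at 26.4, 44.01 and 53.04 CPM in vector, 45.4, 132 and 89.8 in S136X and 63.49, 151 and 143 in R58Q. Both SAMD9L (1.53 ± 0.34, adjusted p = 0.0171) and SAMD9 (0.76 ± 0.22, adjusted p = 0.0407) were called for R58Q, and SAMD9L for S136X with the block (1.05 ± 0.14, adjusted p = 0.00052). SP100, a protein of nuclear bodies, stood at 50.4, 63.8 and 68.4 CPM in vector, 58.6, 96.2 and 76.52 in S136X and 59.9, 95.2 and 81.1 in R58Q, with overlap between all groups. It was called in neither mutant under either fit, at 0.34 ± 0.17, adjusted p = 0.245 and 0.37 ± 0.17, adjusted p = 0.154, and SP110 was called for R58Q only with the block (0.77 ± 0.14, adjusted p = 0.00305).

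Most of the IFI genes have less defined roles, and their fold changes covered a wide range. IFI44L stood at 2.17, 10.51 and 10.98 CPM in vector, 9.499, 186 and 71.4 in S136X and 22.8, 239 and 154 in R58Q, and was called in both, at 3.5 ± 0.93, adjusted p = 0.0473 and 4.14 ± 0.84, adjusted p = 0.0124. IFI44 beside it stood at 1.04, 6.27 and 6.56 CPM in vector, 3.21, 71.46 and 29.1 in S136X and 5.70, 83.6 and 53.04 in R58Q. For IFI44 replicate 1 of both mutants lay below vector replicates 2 and 3, and it was called for R58Q (3.36 ± 0.90, adjusted p = 0.0323) and for S136X only with the block (2.70 ± 0.26, adjusted p = 0.000103). IFI6, a mitochondrial and endoplasmic reticulum protein, stood at 1.48, 2.14 and 2.21 CPM in vector, 4.13, 16.3 and 7.09 in S136X and 7.14, 27.1 and 13.2 in R58Q, without overlap, at 2.24 ± 0.46, adjusted p = 0.0186 and 3.02 ± 0.46, adjusted p = 0.00383. IFI27 was low in every library, at 0.564, 0.703 and 1.06 CPM in vector, 0.478, 0.930 and 0.667 in S136X and 0.505, 1.17 and 0.704 in R58Q. Of the 43 members tested it had the lowest log2 fold changes without the block, -0.16 ± 0.35, adjusted p = 0.812 and 0.027 ± 0.37, adjusted p = 0.965, and it was called neither without nor with the block. EPSTI1 was called in both mutants (1.94 ± 0.48, adjusted p = 0.0371 and 2.49 ± 0.42, adjusted p = 0.00565), while IFI35 and LGALS3BP were called for R58Q (1.88 and 0.76) and IFI35 for S136X with the block.

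Counted over libraries, 10 of the 45 members had all 3 S136X libraries above all 3 vector libraries, beside 15.8% of the genes passing the filter. For R58Q the count was 35 of 45, beside 20.7%. Replicate 1 of each mutant was the library that most often overlapped the vector range. S136X replicate 1 was at or below the highest vector library for 35 of 45 members, replicate 2 for 2 and replicate 3 for 4, and for R58Q the counts were 10, 0 and 2.

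R58Q stood above S136X for all 44 members tested directly against each other, with a median log2 fold change of 0.51 beside 0.00 over all genes. edgeR called 0 of the 44, with 1 at an unadjusted p under 0.05, beside 0.27% of all 15195 genes called higher. DESeq2 and limma-voom also called 0 of the 44, beside 92 and 41 of all 15195 genes called higher. With the replicate number as a block 17 were called higher, beside 1.36% of all genes. The block gave 16 with DESeq2 (146 of 15195 genes called higher) and 16 with limma-voom (201 of 15195). The 17 comprised all 4 IFIT genes, led by IFIT3 (1.06 ± 0.099, adjusted p = 3.05e-07) and IFIT1 (1.0 ± 0.11, adjusted p = 1.65e-06), and XAF1 (1.0 ± 0.11, adjusted p = 1.67e-06). Without R58Q replicate 2 and without the block the median was 0.064, with 14 of 44 members negative, and without S136X replicate 1 it was 0.16. S136X replicate 2 exceeded R58Q replicate 1 for 44 of 45 members and R58Q replicate 3 for 34. IRF9 was the only member of the 45 whose 3 R58Q libraries all lay above the 3 S136X libraries, beside 9.19% of the genes passing the filter.

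The members varied together between replicates of 1 group. Replicate 1 was the lowest library for 41 of 44 members passing the filter in vector, 44 of 44 in S136X and 43 of 44 in R58Q. The highest was replicate 2 for 43 of 44 in S136X and 44 of 44 in R58Q, and replicate 3 for 37 of 44 in vector. Replicate 1 was the lowest in all 3 groups at once for 40 of the 44 (90.9%), beside 13.03% of 15860 genes, and replicate 2 was also the highest in both mutants for 39 (88.6%), beside 4.94%.

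**Figure D3:**
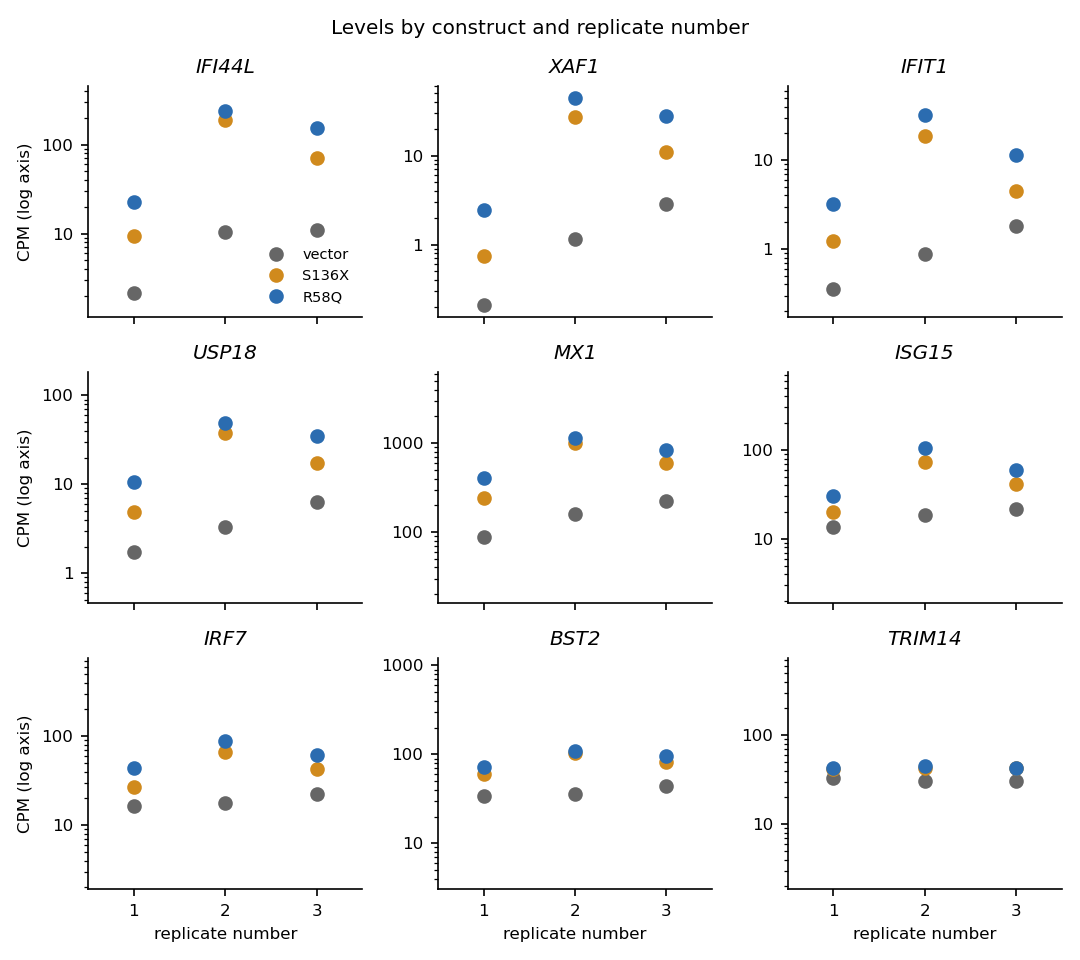
Level in CPM (log axis, the same span in each panel) of 9 members by replicate number (x axis) and construct (colour), 1 point per library. At each number the order is vector, S136X, R58Q for 8 of the genes, replicate 1 is lowest in each group for these 8, and TRIM14 is level across numbers.

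A model with construct and replicate number over all 9 libraries measured this. The replicate number was called (edgeR F test over 2 coefficients, adjusted p under 0.05) for 41 of the 44 members, beside 20.7% of 15860 genes. The median member stood 1.26 log2 units higher in replicate 2 than in replicate 1 and 0.73 higher in replicate 3, while the medians over all genes were -0.0052 and -0.0057. The model gives all 3 constructs the same replicate differences. The median deviation of the members from their group mean was -0.38, 0.12 and 0.24 log2 units in vector replicates 1 to 3. It was -0.87, 0.83 and 0.046 in S136X and -0.72, 0.61 and 0.073 in R58Q. In vector, replicate 3 stood highest and the spread was smaller than in the mutants. In the model the difference between replicates 2 and 1 was largest for RSAD2, at 5.22, HERC5, at 4.64, and XAF1, at 4.33. It was 1.52 for MX1 and 0.51 for BST2. The value of RSAD2 is uncertain, since its replicate 1 counts were 0 in vector, 1 in S136X and 3 in R58Q. Replicate 1 of vector was also low for HERC5 (8 counts) and XAF1 (7). The 3 members not called were TRIM14 (adjusted p = 0.863), IFI27 (adjusted p = 0.133) and LGALS3BP (adjusted p = 0.146). MX2, which was called for neither mutant, was called for the replicate number (adjusted p = 0.00712), at 0.48 log2 units for replicate 2 over 1.

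The variance of each gene's log2 CPM over the 9 libraries was split into construct, replicate number and residual. Over the 44 members the median shares were 56.1% for construct, 35.3% for replicate number and 7.42% for the residual, beside 43.4%, 25.8% and 17.9% over all genes. The share of the replicate number exceeded that of the construct for 13 of the 44 (29.5%), beside 38.7% of all genes, led by LY6E (75.3%), MX2 (73.1%), IFI27 (65.6%) and SP100 (64.1%). It was lowest for TRIM14 (0.495%), BST2 (11.9%), IRF7 (16.8%) and IFIH1 (17.97%). Genes of NF-kB feedback and NF-kB targets in the same libraries had median shares of 97.4% for construct and 1.59% for replicate number over 16 genes. The list was written with earlier results of these data known, and most of its genes were called higher in both mutants. Its high construct share was therefore partly set by the choice.

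**Figure D4:**
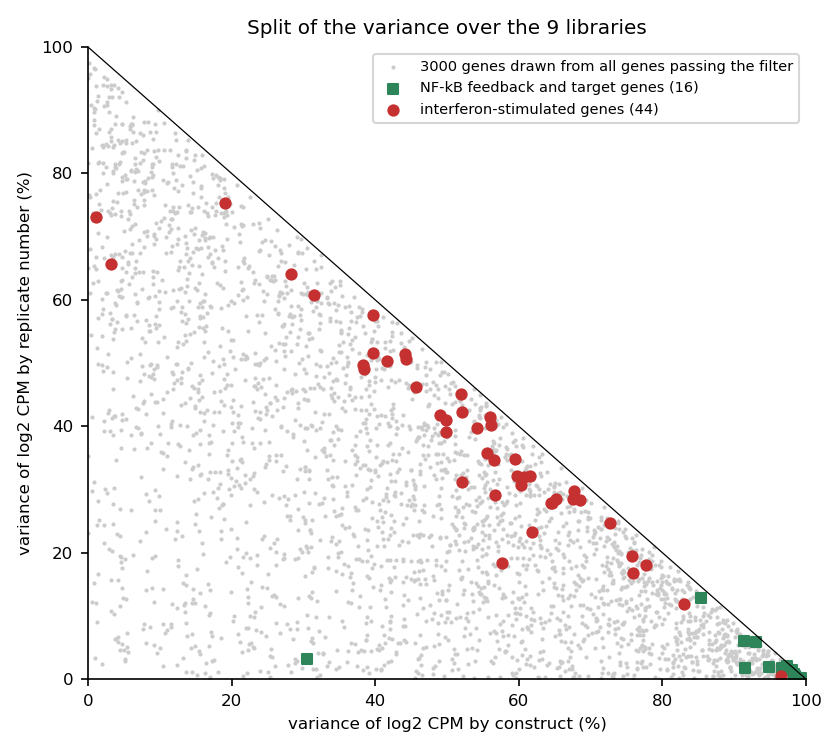
Share of the variance of log2 CPM over the 9 libraries taken by construct (x axis, %) and by replicate number (y axis, %), 1 point per gene, with the diagonal where both add to 100%. The 44 interferon-stimulated genes spread along the diagonal with a median of 35.3% for replicate number, while the 16 NF-kB genes stay low, with a median of 1.59%, and grey points are a random draw of all genes passing the filter. The NF-kB list was written with earlier results of these data known.

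Set against the vector library of the same number, most members were higher in the mutant in each pair, by amounts that differed between pairs. S136X exceeded vector in all 3 pairs for 39 of 44 members, beside 26.6% of all genes, and R58Q did for 42 of 44, beside 29.7%. R58Q exceeded S136X in all 3 pairs for 41 of 44, beside 24.7%. Each pair with R58Q joins libraries of different column dates. The median difference for S136X was 0.62, 1.58 and 0.77 log2 units in pairs 1, 2 and 3, and for R58Q it was 1.26, 1.94 and 1.43. Pair 2 gave the largest difference for 42 of 44 members in S136X and for 42 of 44 in R58Q.

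The rest of the pathway was read from lists of genes chosen for their roles. Of 20 type I and type III interferon genes, 17 were at 0 in every library, a count that allows up to 3 reads, and 19 did not exceed 3 counts in any. IFNB1 was the exception, with counts of 0, 3 and 1 in vector, 2, 3 and 3 in S136X and 4, 8 and 5 in R58Q, too few to pass the filter, and IFNG, the type II interferon, did not exceed 1 count. Of the 6 receptor chains 0 were called in either mutant, among them IFNAR1 (-0.078 for S136X, 0.097 for R58Q).

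STAT2, a subunit of ISGF3, stood at 50.54, 64.8 and 66.2 CPM in vector, 43.2, 78.53 and 65.6 in S136X and 70.1, 111 and 82.2 in R58Q and was not called, at 0.047 ± 0.19, adjusted p = 0.904 and 0.54 ± 0.17, adjusted p = 0.0551. Of 13 sensors and adaptors upstream of interferon, 10 were tested, and 0 were called for S136X and 3 for R58Q, which were DDX58 (0.90), TLR7 (0.93) and CGAS (0.69).

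Among 5 feedback inhibitors SOCS1 was called in both mutants (0.97 ± 0.23, adjusted p = 0.0307 and 2.19 ± 0.16, adjusted p = 0.000109) and SOCS3 in R58Q (2.76 ± 0.40, adjusted p = 0.00306), with the block also in S136X (0.91 ± 0.18, adjusted p = 0.00464). Of 13 genes known chiefly as interferon-gamma targets, 7 were tested and 3 were called in each mutant, which were IRF1 (0.79 and 2.03), CXCL10 (1.34 and 2.31) and CIITA (1.01 and 1.23). The tested genes of this list did not move alike between replicates. For replicate 2 over 1, GBP3 (0.96 log2 units), IRF8 (0.26) and CIITA (0.10) rose and CXCL9 (-1.40) fell. Each was called for the replicate number (edgeR, adjusted p under 0.05), while IRF1 and WARS1 were not. The chemokine CXCL10 went against the members between replicates. Its levels were 5.16, 2.54 and 3.77 CPM in vector, 14.6, 6.57 and 7.82 in S136X and 28.2, 10.4 and 18.4 in R58Q, so that replicate 1 was the highest library of each group and replicate 2 the lowest, with -1.24 log2 units for replicate 2 over 1 (adjusted p = 5.17e-05, edgeR). Of the 16 NF-kB genes, 12 were called higher and 0 lower for S136X, and 13 higher and 1 (BCL3) lower for R58Q.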

How the data were processed

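Poly(A)-selected RNA of RIVA cells was sequenced single-end in 9 libraries, 3 per construct. The authors deposited raw read counts per gene, and the submitters' notes name cutadapt, STAR, Picard and the build hg38, while versions, annotation and strand setting are not given in the sources used here. The authors also deposited a normalized signal column per library, a constant multiple of the counts, which was used only to check the counts. The table lists 60656 genes.

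Counts were filtered (edgeR filterByExpr, minimum count 10, minimum total 15), TMM-normalized and tested in the libraries of each pair of groups by edgeR 4.0.16 quasi-likelihood fits in R 4.3.3, with Benjamini-Hochberg adjustment over all genes tested. A call needed an adjusted p under 0.05 and a change of 1.5-fold. Values after ± are approximate standard errors, the absolute log2 fold change divided by the square root of the test's F statistic. Alternatives were limma 3.58.1 (voom), DESeq2 1.42.0, other scaling and filters, all 9 libraries in 1 fit, each library left out, and the replicate number as a block. Log2 CPM for the variance split used a prior count of 2. The replicate numbers come from the sample labels, which do not say that same-numbered libraries belong together. Same-numbered libraries deviated together from their group means in all 9 pairs (correlation 0.143 to 0.626 over 15860 genes). The median over the 18 pairs with different numbers was -0.251. Deviations within a group cancel out, so that this negative value largely follows from the positive ones and is no separate evidence. From the same-number correlations, the numbers were taken as pairing the samples in the block fits, the replicate-number model and the comparisons by pair. The main fits used no pairing. The pairing joins R58Q libraries to vector and S136X libraries of an earlier column date. This pairing was read from the same libraries that were tested, so that calls with the block depend on it. On simulated counts for S136X against vector (15378 genes), the edgeR test recovered 152 of 200 genes changed 2-fold with 7 false calls, and 164 with 18 false calls with the block. Genes were simulated independently, and only 200 others changed with the replicate number, in replicate 2 alone. The simulation therefore does not show how either fit behaves for genes that vary together, such as the members.

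The members and gene lists were chosen with earlier results of these data known. Per-library values are given for preset genes of each family and for the 3 highest and 3 lowest members of each comparison with vector, and other members are given by ranges, counts or a changed call. TRIM14 was added after its values were seen. Some results on the rest of the pathway are not reported here.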

Additional observations from a re-analysis of the deposited data

Results flagged for a closer look

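For 17 of the 44 members tested, R58Q and S136X differed when tested directly with the replicate number as a block. A call needed an adjusted p under 0.05 (edgeR) and at least 1.5-fold. R58Q was higher for each of the 17, beside 1.36% of all genes called higher. The log2 difference was 1.06 for IFIT3, 1.0 for IFIT1, 1.0 for XAF1, 0.98 for RSAD2 and 0.88 for CMPK2. RSAD2 held only 1 count in S136X replicate 1 and 3 in R58Q replicate 1. It was 0.83 for IFIT2, 0.80 for IFI44L, 0.79 for IFI6, 0.77 for OASL and 0.71 for USP18. HERC6 differed by 0.66, HERC5 by 0.66, DTX3L by 0.64, PARP9 by 0.64, OAS3 by 0.63, IFIT5 by 0.62 and EPSTI1 by 0.60. Without the block edgeR called 0 of the 44 members tested, with 1 at an unadjusted p under 0.05, and the R58Q libraries also carry a later date, so that construct and date cannot be told apart.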

How the results depend on the processing

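The number of members called for S136X against vector, 8 of 43, depended on the fit. Genes called higher among all genes tested, 319 of 15530 there, are in brackets. The replicate number as a block gave 30 of 43 (451 of 15530), and over all 9 libraries 31 of 44 (507 of 15860). The block gave 23 of 43 in DESeq2 (370 of 15530) and 30 of 43 in limma-voom (458 of 15530). It was 33 of 45 with no filter (454 of 29897) and 3 of 43 with limma-voom (286 of 15530). At an adjusted p under 0.01 it was 1 of 43 (181 of 15530). For R58Q against vector, 36 of 43 (632 of 15435), the count was 14 of 43 at an adjusted p under 0.01 (425 of 15435). For R58Q against S136X, 0 of 44 (41 of 15195), the block gave 17 of 44 (206 of 15195). With the block it was 13 of 44 over all 9 libraries (162 of 15860). DESeq2 with the block gave 16 of 44 (146 of 15195) and limma-voom 16 of 44 (201 of 15195). Leaving out 1 library moved the calls for S136X from 0 of 43 (187 of 15912, without vector replicate 2) to 36 of 43 (366 of 15989, without S136X replicate 1). For R58Q they ran from 14 of 44 (474 of 15772, without vector replicate 2) to 40 of 44 (634 of 15915, without R58Q replicate 1). The log2 fold change of IFI27 in R58Q turned to -0.0054 with limma-voom, -0.029 with total counts and -0.038 with upper-quartile scaling, and ran from -0.35 to 0.32 with 1 library left out. With 1 library left out it ran from -0.42 to 0.15 for IFI27 in S136X, from -0.11 to 0.20 for MX2 in S136X and from -0.10 to 0.26 for MX2 in R58Q. Between the mutants it ran from -0.18 to 2.44 for IFIT1 and from -0.015 to 1.77 for IFI44L. The cause was not tested. In the main fits, with 43 members tested, RSAD2 and ZBP1 had too few counts to be tested against vector. The fits over all 9 libraries tested 44 members, RSAD2 among them, and the fits with no filter tested all 45.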
